A study of Mus musculus with 8 samples.

Results

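The genes of the proteasome, the protease that degrades ubiquitin-tagged proteins, were described in the livers of female mice given dihydrotestosterone (DHT), an androgen, or no hormone. Members were the genes of the normalized count table whose Ensembl identifier carries a protein-coding GENCODE M21 symbol of the families Psma to Psmg followed by a number, without Psmb8 and Psmb9. The annotation has 48 such genes. The table holds 45 of them among its 14317 mouse genes, and all 45 were tested. The other 3, Psma8, Psmb11 and Psmc3ip, were not analysed here. Of the 45, 15 encode the 20S core particle, 17 the 19S regulatory particle, and 13 encode assembly chaperones, other activators or an inhibitor.

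The study asked what androgen excess does to the liver under a rich diet. Both groups were female mice on a Western diet (WD) rich in fat, fructose and cholesterol. Con-Veh mice (n = 4) carried an empty silastic pellet and Con-DHT mice (n = 4) a 10 mm pellet of DHT, each for 8.5 weeks. The labels give the genotype of both groups as WT, and the mice were implanted at 7 weeks of age. Whole liver RNA from 1 mouse made each library, so a level is an average over hepatocytes and all other liver cells.

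The 20S particle is a barrel of alpha rings at the ends, which form the gate, and beta rings inside, of which Psmb5, Psmb6 and Psmb7 carry the proteolytic sites. The 19S particle caps it. Its base holds the ATPases that unfold a substrate, and its lid holds the deubiquitinase Psmd14. Interferon-gamma is known to induce the replacement beta subunits Psmb8, Psmb9 and Psmb10 and the activator pair Psme1 and Psme2, and Nfe2l1 is known as the transcription factor that raises proteasome genes when proteolysis is impaired.

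Reads on mouse genes ranged from 14240001 to 17815944 in Con-Veh and from 13123962 to 15205299 in Con-DHT. Mitochondrially encoded genes took 3.38% to 4.59% of reads. The hepatocyte markers summed to normalized values of 838630 to 1635990 in Con-Veh and 896919 to 1065730 in Con-DHT, with 6 of 7 listed symbols in the table. Most of this sum is Alb, which averaged 928458 in Con-Veh and 640916 in Con-DHT. Con-Veh replicate 1 stood apart in many proteasome genes and had the highest spike-in share, 3.61% against 1.68% to 2.92% in the other libraries. Correlations between genes are given with and without it.

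Few proteasome genes differed between the groups. None of the 15 genes of the 20S particle and none of the 17 of the 19S particle passed an adjusted p of 0.05 in limma. The 2 members that did were both activators outside these particles: Psme4 rose and Psme1 fell in Con-DHT. These 2 of 45 (4.44%) compare with 7.21% of all 14312 genes tested. By direction, 1 of 45 was higher against 4.60% of all genes, and 1 was lower against 2.61%. The median log2 fold change of the 45 genes was 0.02, against -0.01 over all genes tested.

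Other counts also lay below the share of all genes. An unadjusted p of at most 0.05 was reached by 5 members (Psme1, Psme2, Psme4, Psmb10 and Psmd5), against 23.2% of all genes. The groups of values did not overlap in 4 members (8.89%), against 15.1% of all genes. edgeR called 2 members, against 7.15% of all genes, and DESeq2 called 4, against 11.0%. The members DESeq2 added were Psmb10 and Psme2.

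**Figure D1:**
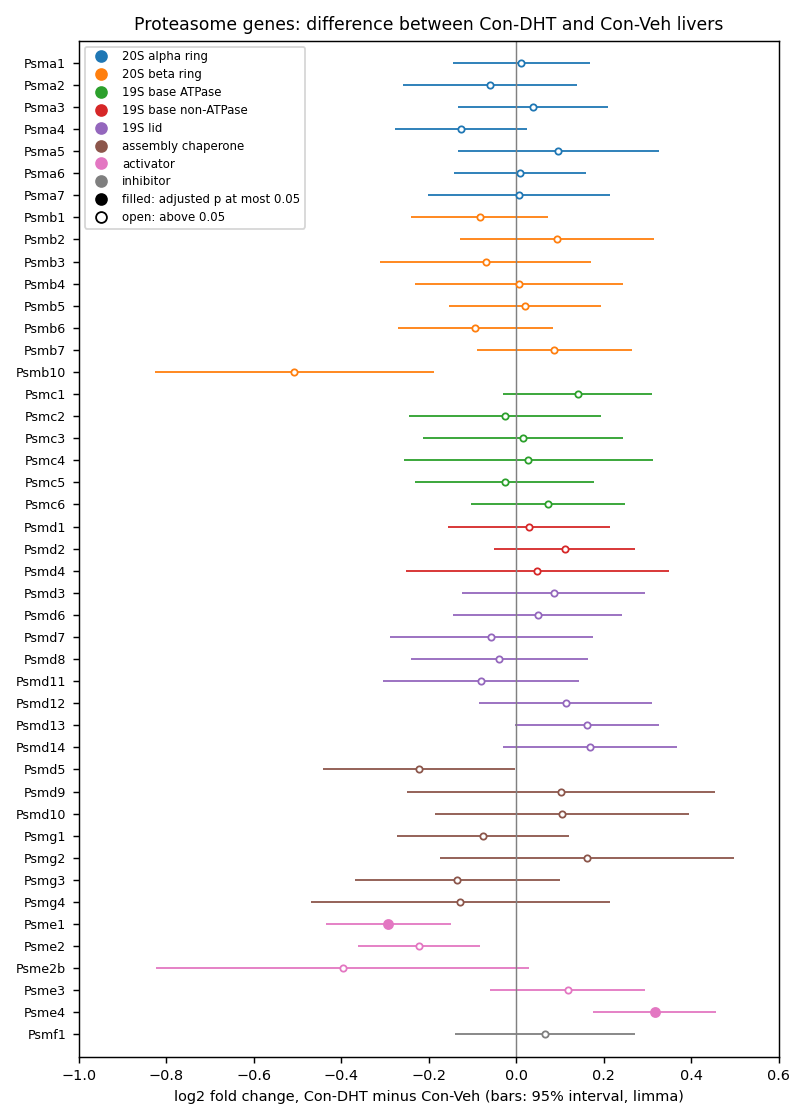
The log2 fold change (horizontal axis, Con-DHT minus Con-Veh) of each of the 45 genes with its 95% interval from limma, n = 4 livers a group, coloured by role. Filled points mark the 2 genes with an adjusted p of at most 0.05, Psme1 on the left and Psme4 on the right. The 20S and 19S genes other than Psmb10 lie between -0.13 and 0.17.

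Psme4 encodes PA200, a large activator that caps the 20S barrel without ATP. Its normalized values were 1332, 1389.8, 1394 and 1271 in Con-Veh and 1614, 1669, 1662 and 1761 in Con-DHT. Every Con-DHT liver lay above every Con-Veh liver. Psme4 rose by a log2 fold change of 0.32 (SE 0.063, 95% interval 0.18 to 0.46, limma adjusted p = 0.015), from 1347 ± 57.8 to 1676 ± 61.5 (SD, n = 4). Without Con-Veh replicate 4 the log2 fold change was 0.29, with an adjusted p of 0.0501. The call held in limma without each of the other 7 libraries. It did not hold after correction for transcript length and GC content (0.21, adjusted p = 0.0853) or with scaling by the spike-ins (0.51, adjusted p = 0.607).

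Psme1 encodes the alpha subunit of PA28, the ring that interferon-gamma induces and that opens the 20S barrel for peptide release. Its values were 968, 1011, 953 and 899.9 in Con-Veh and 774, 800.3, 796 and 757 in Con-DHT. The groups did not overlap. Psme1 fell by 0.29 on the log2 scale (SE 0.064, limma adjusted p = 0.023), from 958 ± 46.0 to 782 ± 20.3 (SD, n = 4). The call held without Con-DHT replicate 3 or Con-Veh replicate 4. It was lost without any of the other 6 libraries, where the adjusted p was 0.0502 to 0.073 and the log2 fold change stayed between -0.32 and -0.27 over all 8 omissions. It was also lost in limma with an equal total without the major urinary protein genes (-0.19, adjusted p = 0.0941), with scaling by the spike-ins (-0.09, adjusted p = 0.958) and without the trend (adjusted p = 0.0558).

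Psme2 encodes the beta subunit of the same ring. Its values were 939, 990.2, 895 and 946 in Con-Veh and 792, 804, 801 and 833 in Con-DHT. These groups did not overlap either. The log2 fold change was -0.22 (SE 0.062), and it did not pass in limma (adjusted p = 0.060) but did in DESeq2 (adjusted p = 0.028). It also passed in limma with array weights (-0.23, adjusted p = 0.0466) and in limma after correction for transcript length and GC content (-0.27, adjusted p = 0.025). The ratio of Psme1 to Psme2 per kb of exon was 0.812 ± 0.038 in Con-Veh and 0.774 ± 0.033 in Con-DHT (SD, n = 4), with overlapping groups.

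The near-identical gene Psme2b shares 794 aligned bases with Psme2 at 99.4% identity, so reads could be split or dropped between them, and both are uncertain to that extent. Psme2b was the lowest of the members in the table, at 66.5 ± 9.26 in Con-Veh and 50.8 ± 10.8 in Con-DHT (SD, n = 4). Its log2 fold change was -0.40 (SE 0.19, limma adjusted p = 0.25). Psme3 encodes PA28-gamma, a nuclear activator that interferon does not induce. Its values were 977, 891, 828 and 814 in Con-Veh and 982, 874, 945 and 1000.1 in Con-DHT. The groups overlapped, and the log2 fold change was 0.12 (SE 0.080, limma adjusted p = 0.42).

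The 2 called activators thus changed in opposite directions. Per kb of exon, the ratio of Psme4 to Psme1 was 0.363, 0.362, 0.385 and 0.372 in the Con-Veh livers and 0.549, 0.5497, 0.5501 and 0.613 in the Con-DHT livers. This ratio within a library does not depend on the scaling of the library. It averaged 0.371 ± 0.011 in Con-Veh and 0.566 ± 0.032 in Con-DHT (SD, n = 4). The groups could not overlap in this ratio, because neither gene overlapped and the 2 moved in opposite directions. The ratio of Psme1 to the 20S subunit Psma1 was 0.948 ± 0.063 in Con-Veh and 0.767 ± 0.032 in Con-DHT, without overlap. Psme1 and Psme4 were picked by their calls, so both ratios are descriptions and add no test of these calls.

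Psmb10 encodes the interferon-inducible subunit beta2i, which takes the place of Psmb7. Its values were 466, 617, 419 and 414 in Con-Veh and 337, 379, 350.1 and 273 in Con-DHT. The groups did not overlap, but Con-Veh replicate 2 was well above the other 3 Con-Veh livers. The log2 fold change was -0.51 (SE 0.14, 95% interval -0.83 to -0.19). It had a limma adjusted p of 0.062, an edgeR adjusted p of 0.059 and a DESeq2 adjusted p of 0.019. The log2 fold change lay between -0.57 and -0.38 when each library was left out in turn.

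The replacement subunits were set against the constitutive subunit each replaces, per kb of exon. The ratio of Psmb10 to Psmb7 was 0.579 ± 0.129 in Con-Veh and 0.381 ± 0.063 in Con-DHT (SD, n = 4), with no overlap. The ratio of Psmb8 to Psmb5 was 0.160 ± 0.037 in Con-Veh and 0.120 ± 0.012 in Con-DHT, and that of Psmb9 to Psmb6 was 0.058 ± 0.012 and 0.061 ± 0.018. The last 2 ratios overlapped between the groups.

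Psmb8 and Psmb9 are not members and serve here as neighbours of Psmb10 in function. Psmb8 had values of 438, 555, 348 and 369.9 in Con-Veh and 321, 361, 323 and 298 in Con-DHT (log2 fold change -0.37, limma adjusted p = 0.14). Psmb9 had values of 182, 243, 159 and 222 in Con-Veh and 212, 248.7, 156 and 159.8 in Con-DHT (log2 fold change -0.06, limma adjusted p = 0.88). Con-Veh replicate 2 was the highest Con-Veh liver for Psmb8, Psmb9, Psmb10, Psme1 and Psme2.

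**Figure D2:**
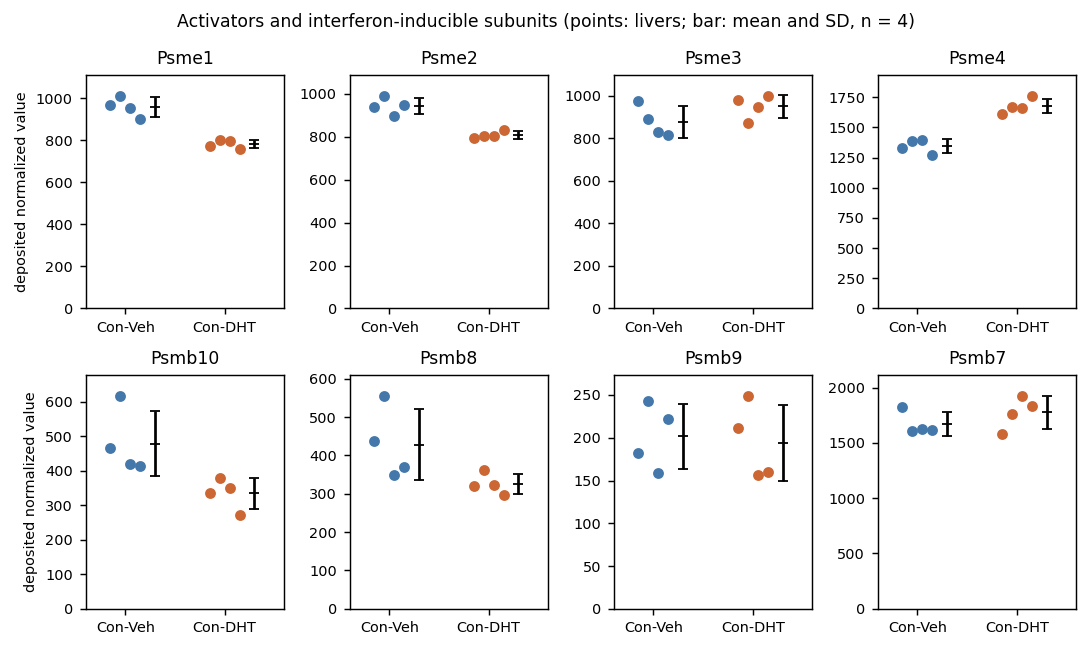
Normalized values (vertical axes, from 0) of the activators and of the interferon-inducible subunits with Psmb7, by group, 1 point a liver, with the mean and SD (n = 4). Psme1, Psme2, Psme4 and Psmb10 show no overlap between the groups, whereas Psme3, Psmb8, Psmb9 and Psmb7 do.

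Genes of interferon-gamma induced antigen processing, a list of 13 that includes Psme1, Psme2 and Psmb10, were lower in Con-DHT in 12 cases and had a median log2 fold change of -0.30, against -0.01 over all genes tested. Over all genes tested, 7368 of 14312 were lower. The members Psme1, Psme2 and Psmb10, already described as lower, are among the 12. Psme1 was the 1 gene of the list that limma called, against 7.21% of all genes, and an unadjusted p of at most 0.05 was reached by 9, against 23.2%. DESeq2 called 4, against 11.0%, and the groups did not overlap in 4, against 15.1%. Both times these were Psme1, Psme2, Psmb10 and B2m. B2m, the light chain of MHC class I, averaged 18367 ± 1092 in Con-Veh and 14564 ± 1274 in Con-DHT (SD, n = 4, limma adjusted p = 0.066), and Tap1, a peptide transporter, had a log2 fold change of 0.02.

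Some markers of immune and endothelial cells were lower in the same livers. All 6 Kupffer cell markers had lower means in Con-DHT, while 7368 of all 14312 genes tested had a lower log2 fold change. Of the 6, 3 were called lower (Clec4f, Vsig4 and Cd5l), against 2.61% of all genes. The summed value of the 6 was 5357 to 6766 in Con-Veh and 3636 to 4932 in Con-DHT. Of 10 listed markers of other leukocytes, only Ptprc and Itgax were in the table, summing to 169 to 263 in Con-Veh and 122 to 177 in Con-DHT, and neither was called. Of 6 endothelial markers, Stab2 and Lyve1 were called, both lower, against the same 2.61%, while Kdr had means of 526 and 530.2. The 6 summed to 3986 to 4383 in Con-Veh and 2917 to 3529 in Con-DHT. Of 6 stellate cell markers, 4 had higher and 2 lower log2 fold changes, and none was called. Of 4 cholangiocyte markers, 3 were higher and 1 lower, again with none called. Of 6 hepatocyte markers, 3 were higher and 3 lower. Serpina1c was the 1 called, higher (log2 fold change 0.54, limma adjusted p = 0.016), against 4.60% of all genes. In bulk liver, fewer cells of a type and less RNA per cell cannot be told apart. The part of any cell type in the values of Psme1, Psme2 and Psmb10 was not tested.

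Among the 7 alpha ring genes of the 20S particle, log2 fold changes ran from -0.13 to 0.10 and none was called. The lowest was that of Psma4, with values of 1468, 1414, 1359 and 1339 in Con-Veh and 1255, 1239, 1392 and 1229 in Con-DHT. Its log2 fold change was -0.13 (SE 0.068, limma adjusted p = 0.30), and the groups overlapped through Con-DHT replicate 3. The highest was that of Psma5, at 1028, 923, 935 and 829 in Con-Veh and 927, 945, 912 and 1200.1 in Con-DHT. It had a log2 fold change of 0.10 (SE 0.10, limma adjusted p = 0.63), and Con-DHT replicate 4 was the one liver far above the rest.

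None of the constitutive proteolytic beta subunits passed the test. Psmb5, the chymotrypsin-like subunit, had values of 795, 689, 712 and 654 in Con-Veh and 677, 724, 734 and 749 in Con-DHT (log2 fold change 0.02, SE 0.078, limma adjusted p = 0.91). Psmb6, the caspase-like subunit, had values of 1908, 1767, 1744 and 1673 in Con-Veh and 1509, 1574, 1816 and 1759 in Con-DHT (log2 fold change -0.09, limma adjusted p = 0.53). Psmb7, the trypsin-like subunit, had values of 1827, 1603, 1628 and 1617 in Con-Veh and 1581, 1761, 1923 and 1835 in Con-DHT (log2 fold change 0.09, limma adjusted p = 0.56). The groups overlapped in all 3. Psmb2, a beta subunit without a proteolytic site, had values of 727, 679, 585 and 674 in Con-Veh and 628, 683, 709 and 826 in Con-DHT (log2 fold change 0.09, limma adjusted p = 0.63).

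In the 19S base, the 6 ATPase genes had log2 fold changes of -0.03 to 0.14. The highest was Psmc1, with values of 1869.9, 1719, 1583 and 1799.8 in Con-Veh and 1850.3, 1824, 1898 and 2108 in Con-DHT. Its log2 fold change was 0.14 (SE 0.077, limma adjusted p = 0.31) and the groups overlapped. Psmd2, the scaffold that also binds ubiquitin-like domains, had values of 3406, 3052, 2944 and 3086 in Con-Veh and 3115, 3399.6, 3481 and 3477 in Con-DHT (log2 fold change 0.11, limma adjusted p = 0.40). Psmd4, the ubiquitin receptor, had values of 2111, 1625, 1567 and 1659 in Con-Veh and 1605, 1526, 1829.9 and 2275 in Con-DHT. For Psmd4 the log2 fold change was 0.05 (SE 0.14, limma adjusted p = 0.87), and within each group 1 liver was far above the others.

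In the 19S lid, Psmd14 and Psmd13 had the highest log2 fold changes of the 19S part. Psmd14, the deubiquitinase, had values of 554, 536, 560.03 and 541 in Con-Veh and 529.8, 599, 649 and 698 in Con-DHT. Con-DHT replicate 1 lay below all Con-Veh livers and the other 3 lay above them. The log2 fold change was 0.17 (SE 0.089, limma adjusted p = 0.29). Psmd13, a structural lid subunit, had values of 1182, 1100.2, 990.3 and 1032 in Con-Veh and 1161, 1157, 1256 and 1235 in Con-DHT (log2 fold change 0.16, SE 0.074, limma adjusted p = 0.22). It passed in limma when each library was scaled to an equal total without the major urinary protein genes (adjusted p = 0.0485). Exons of Sirt3, which is expressed in these livers, lie opposite 10.1% of the exonic bases of Psmd13, and reads of the pair cannot be told apart there because the library kit did not mark strand.

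The lowest log2 fold changes of the 19S part were those of other lid genes. Psmd11 had values of 1815, 1535, 1444 and 1578 in Con-Veh and 1375, 1345, 1587 and 1724 in Con-DHT (log2 fold change -0.08, limma adjusted p = 0.68). Psmd7 had values of 1383, 1172, 1164 and 1178 in Con-Veh and 1037, 1054, 1368 and 1269 in Con-DHT (log2 fold change -0.06, limma adjusted p = 0.80). Psmd8 had values of 1826, 1535, 1493 and 1491 in Con-Veh and 1467, 1425, 1545 and 1737 in Con-DHT (log2 fold change -0.04, limma adjusted p = 0.84). The groups overlapped in each.

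Counted by particle, no 20S gene was called by limma or edgeR, and DESeq2 called 1, Psmb10, which was also the 1 of 15 at an unadjusted p of at most 0.05. No 19S gene was called by limma, edgeR or DESeq2, and none of the 17 reached an unadjusted p of 0.05. For the 31 genes of both particles without Psmb10, every 95% interval of the log2 fold change lay between -0.31 and 0.37.

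The 20S and 19S particles were contrasted through the mean centred log2 value of their genes in each library. The 20S minus the 19S value was -0.0022, 0.099, 0.064 and 0.0090 in the Con-Veh livers and -0.032, 0.018, -0.037 and -0.12 in the Con-DHT livers. It averaged 0.042 ± 0.048 in Con-Veh and -0.042 ± 0.056 in Con-DHT (SD, n = 4), a difference of -0.085. The groups overlapped, since Con-DHT replicate 2 lay above Con-Veh replicates 1 and 4. Without Psmb10 the difference was -0.051, with means of 0.026 ± 0.034 and -0.026 ± 0.039. The median log2 fold change was 0.0065 over the 20S and 0.048 over the 19S genes, and leaving out single libraries moved these medians to between -0.051 and 0.050 and between -0.018 and 0.10.

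**Figure D3:**
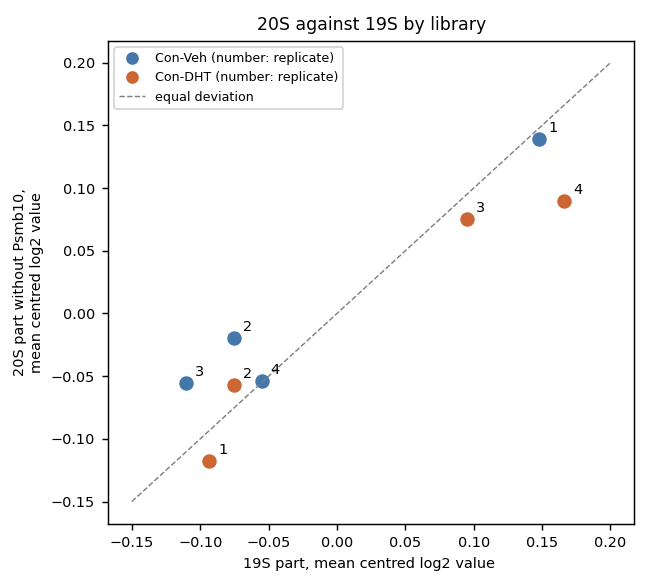
Mean centred log2 value of the 14 genes of the 20S part without Psmb10 (vertical axis) against that of the 17 genes of the 19S part (horizontal axis), 1 point a liver, numbered by replicate, with a dashed line of equal deviation. Con-Veh replicate 1 and Con-DHT replicates 3 and 4 lie high on both axes, and the other 5 livers lie low on both.

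For the genes of the particles, livers of 1 group differed more than the groups did. Over the 31 genes the mean centred log2 value was 0.14 in Con-Veh replicate 1 and -0.051, -0.086 and -0.055 in Con-Veh replicates 2, 3 and 4. It was -0.10 and -0.067 in Con-DHT replicates 1 and 2, and 0.086 and 0.13 in Con-DHT replicates 3 and 4. These 3 high livers were also the 3 libraries with the fewest reads (14240001, 14275075 and 13123962), and the part of depth in this was not tested.

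Genes of both particles went up and down together over the livers. After centring within each group, the mean Pearson r over pairs of genes was 0.65 within the 20S part without Psmb10, 0.74 within the 19S part and 0.68 between the parts, over 8 libraries, against 0.0002 over all pairs of genes tested. The points share libraries and their scaling, so these values are a description. Without Con-Veh replicate 1 they were 0.57, 0.69 and 0.596. After the values had been corrected by loess for transcript length and GC content they were 0.49, 0.70 and 0.58. The COP9 signalosome, a complex related in form to the 19S lid, had a mean r of 0.088 over its 10 genes. The 8 genes of the CCT chaperonin had 0.50. Without Con-Veh replicate 1 these values were 0.093 and 0.54. After the correction for transcript length and GC content they were 0.033 and 0.51. In that setting the 20S part without Psmb10 (0.49) did not exceed the CCT chaperonin. Under spike-in scaling the particles did not stand apart from these other complexes, and the mean r was 0.947, 0.948 and 0.944 for the particles, 0.93 for the COP9 signalosome, 0.96 for the CCT chaperonin and 0.62 over all pairs of genes.

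Single genes differed in how closely they followed the rest. Psmd3 of the lid had the highest mean r with the other 30 genes of the particles (0.81), followed by Psmc3 (0.80) and Psmb4 (0.798). Psmc6 (0.33) and Psma6 (0.41) had the lowest. Without Con-Veh replicate 1, the mean r was 0.77 for Psmd3, 0.76 for Psmc3, 0.74 for Psmb4, 0.45 for Psmc6 and 0.71 for Psma6. With all 8 libraries corrected for transcript length and GC content, Psma6 had 0.13. Psmb10 had a mean r of -0.20 with the 31 genes, Psme1 0.0038 and Psme4 0.21. Without Con-Veh replicate 1 these were -0.23, -0.095 and 0.36. After the correction for transcript length and GC content they were -0.36, -0.40 and 0.56. Under spike-in scaling they were 0.66, 0.90 and 0.91, where the mean r over all pairs of genes was 0.62. The values of Psmb10, Psme1 and Psme4 thus depended on the processing.

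**Figure D4:**
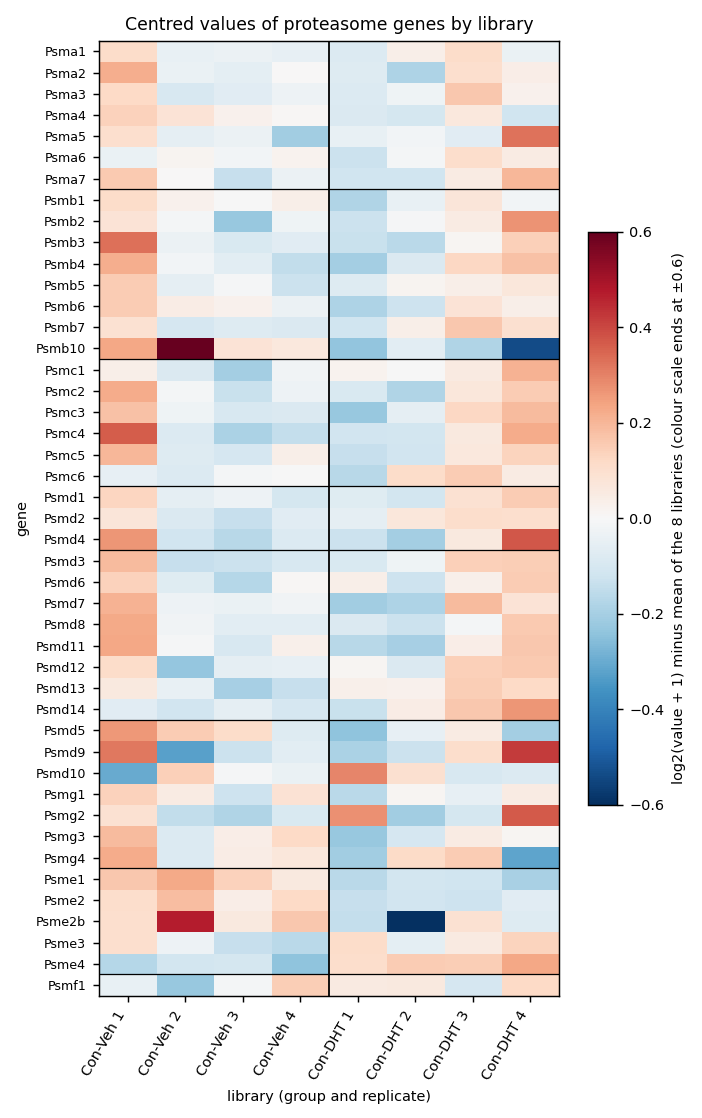
Each gene's log2(value + 1) minus its mean over the 8 libraries (colour), genes in rows by role and libraries in columns, with black lines between roles and between groups. Con-Veh 1, Con-DHT 3 and Con-DHT 4 are red over most 20S and 19S rows, while Psme1, Psme2 and Psme4 change at the line between the groups. Single values of Psmb10 and Psme2b lie beyond the ends of the colour scale.

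The 7 assembly chaperones help build the particles and do not stay in them. None was called. Psmd5, a chaperone of the base, had values of 502, 466, 452 and 397 in Con-Veh and 354, 405, 434 and 364 in Con-DHT (log2 fold change -0.22, SE 0.099, limma adjusted p = 0.21). The groups overlapped. Psmd9, another base chaperone, had log2 fold change 0.10 (SE 0.16), and its values ran from 749.9 to 1258 over the livers.

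Psmd10, the base chaperone known as gankyrin, went against the rest. Its values were 134, 183, 165 and 161 in Con-Veh and 203, 177, 155 and 157 in Con-DHT. It was lowest in Con-Veh replicate 1, where the mean centred value of the 31 genes of the particles was highest (0.14). Its log2 fold change was 0.10 (SE 0.13, limma adjusted p = 0.68). Its mean r with the 31 genes was -0.76, and -0.66 without Con-Veh replicate 1, but 0.78 under spike-in scaling, where the mean r over all pairs of genes was 0.62. Psmd9 had a mean r of 0.75 with the 31 genes, and 0.66 without Con-Veh replicate 1. The core chaperones Psmg1 to Psmg4 had log2 fold changes between -0.13 and 0.16, and the inhibitor Psmf1 (PI31) had values of 517, 455, 528 and 590.1 in Con-Veh and 552, 555, 496 and 578 in Con-DHT (log2 fold change 0.07, limma adjusted p = 0.72).

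Levels were compared between genes as the Con-Veh normalized value per kb of annotated exon, in which unused exons of a long annotation lower the value. The median was 493 over the 20S genes, 465 over the 19S genes and 127 over the 13 others. Psma6 was highest, at 1327 ± 26.3 per kb, next to Psmb4 at 1307 ± 148, and these did not differ beyond their spread. Psmb6 followed at 947 ± 52.7, then Psmc5 at 919.6 ± 89.1 and Psmc1 at 902 ± 63.7, which also did not differ beyond their spread. Among the parts, the base ATPases had a median of 741 per kb and the lid genes one of 412. Psmd14, at 194 ± 3.98, was the lowest 19S gene, and Psma2, at 220.3 ± 20.47, the lowest 20S gene.

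Most members outside the particles had lower levels per kb. The chaperone Psmd5 was the lowest of all 45, at 62.8 ± 6.06 per kb, beside Psmg3 at 63.0 ± 5.01 and Psmg2 at 64.1 ± 5.55, with no difference beyond their spread. Psme4 had 161 ± 6.90 per kb. Psme1 had 434 ± 20.8 and Psme2 534 ± 21.99, within the range of the 20S genes.

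**Figure D5:**
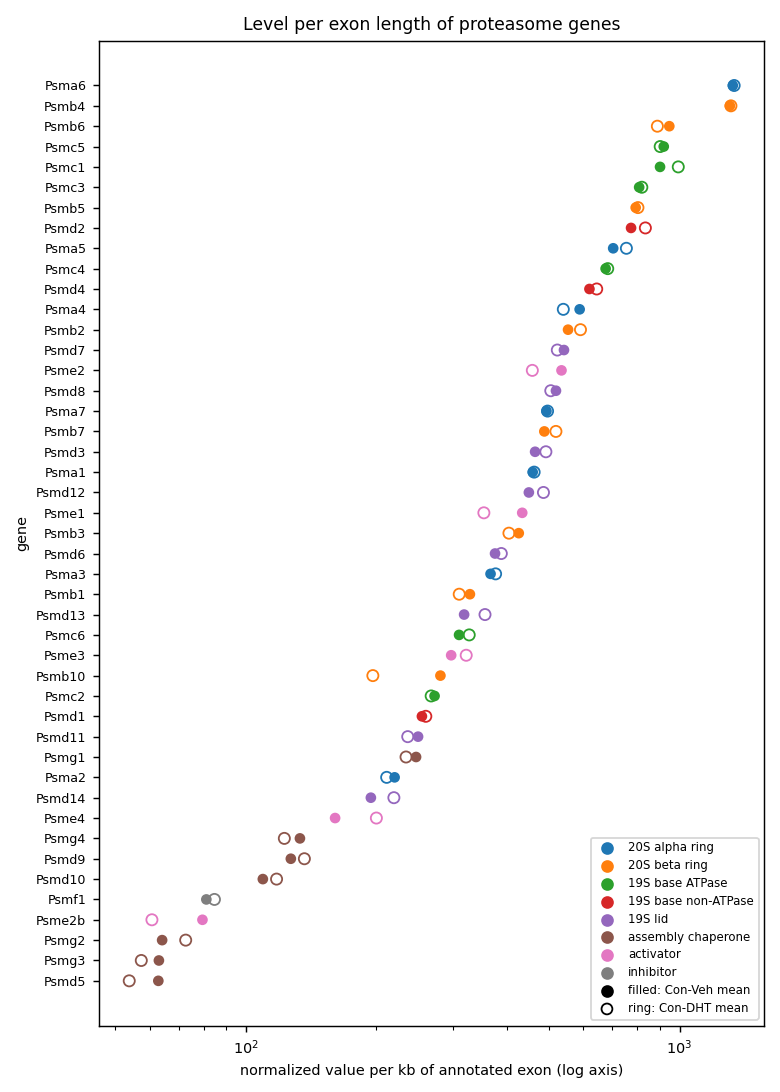
Normalized value per kb of annotated exon (horizontal log axis) of the 45 genes in order of the Con-Veh mean, coloured by role, with filled points for the Con-Veh mean and rings for the Con-DHT mean (n = 4 each). Psma6 and Psmb4 stand at the top, chaperones, Psme2b and Psmf1 at the bottom, and the rings of Psmb10, Psme1 and Psme2b lie to the left of their points.

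Of 10 partners of the proteasome in the table that the symbol rule does not match, 1 was called, against 7.21% of all genes. Ecpas, an adaptor that holds 26S proteasomes at membranes, rose by a log2 fold change of 0.24 (SE 0.060, limma adjusted p = 0.036), from 1348 ± 51.2 to 1597 ± 34.7 (SD, n = 4), with no overlap. That call held without Con-Veh replicate 3 and was lost without any of the other 7 libraries (adjusted p up to 0.10). After correction for transcript length and GC content the log2 fold change was 0.12 (limma adjusted p = 0.238). The maturation factor Pomp (log2 fold change -0.02), the lid component Sem1 (-0.05) and the ubiquitin receptor Adrm1 (-0.09) did not pass, with limma adjusted p-values of 0.92, 0.79 and 0.63.

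Among 8 regulators of proteasome genes, Nfe2l2 was the 1 called, against 7.21% of all genes. It encodes NRF2, which drives antioxidant genes and can raise 20S genes. Its values were 911, 945, 1016 and 1062 in Con-Veh and 804, 765, 765 and 647 in Con-DHT. The groups did not overlap. Nfe2l2 fell by 0.40 on the log2 scale (SE 0.086, limma adjusted p = 0.021), and the call was lost without Con-Veh replicate 3 or 4 (adjusted p up to 0.065). It was also lost with an equal total without the major urinary protein genes (-0.30, adjusted p = 0.0594), with scaling by the spike-ins (-0.20, adjusted p = 0.925) and without the trend (adjusted p = 0.0516). Nfe2l1 had a log2 fold change of 0.07 (SE 0.081, limma adjusted p = 0.66).

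Within groups, both regulators went against the genes of the particles, in the deposited scaling. The mean r with the 31 genes was -0.64 for Nfe2l1 and -0.61 for Nfe2l2 over 8 libraries, and -0.44 and -0.54 without Con-Veh replicate 1, but both were 0.88 under spike-in scaling. These values are across libraries that share their depth and scaling.

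Genes that feed the proteasome were counted beside the share of all genes. Of 6 genes of ubiquitin and its activation, limma called 0, against 7.21% of all genes, and edgeR 0, against 7.15%. DESeq2 called 2 of the 6, against 11.0%, and 4 had an unadjusted limma p of at most 0.05, against 23.2%. Of 11 genes of substrate delivery, limma called 2, both higher, against 4.60% of all genes called higher. DESeq2 called 3 of the 11, against 11.0%. The gene it added, Ubqln4, was lower (log2 fold change -0.28, DESeq2 adjusted p = 0.021, limma adjusted p = 0.051). Rad23b, a shuttle for ubiquitinated proteins, had a log2 fold change of 0.27 (SE 0.062, limma adjusted p = 0.030), and Faf1, a cofactor of the segregase Vcp, one of 0.47 (SE 0.11, limma adjusted p = 0.034). Each of these calls held in 1 of the 8 omissions of a library, that of Con-Veh replicate 1 for Rad23b and that of Con-Veh replicate 3 for Faf1, with adjusted p-values of up to 0.083 and 0.094. Of the COP9 signalosome and of the CCT chaperonin, no gene was called by limma, edgeR or DESeq2 and none reached an unadjusted p of 0.05.

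Promoter sequence from RefSeq (GRCm38.p6, 250 bases before to 50 after the start of a gene) was at hand for 38 of the 45 genes. A start is here the RefSeq one, which can lie inside the GENCODE M21 coordinates of a gene, as for Psme1 and Psme4. Short motifs were searched on both strands, and a match is a description of letters, not a site. The ETS motif CCGGAAG was in 14 of 38 (36.8%), against 9.93% of 27025 genes with such a window, and 10 of the 14 belong to the 20S or 19S particle. The GC box GGGCGG was in 57.9% against 38.2%. The motif CCAAT was in 31.6% against 41.1%, the antioxidant element TGACNNNGC in 15.8% against 13.99%, the interferon-gamma element TTCNNNGAA in 5.26% against 9.55%, and the interferon-stimulated element GAAANNGAA in 18.4% against 9.76%. Motifs can share bases, as the GC box and the ETS motif do before Psme4, and such a window was counted for each.

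Windows of 30 bases around ETS matches (in capitals, CCGGAAG or its reverse complement) are shown for genes of both particles, since this motif was the most frequent relative to all genes. They lie at chr12:55398812-55398841 (+) for the second listed start of Psma6, chr12:100110163-100110192 (+) for Psmc1, chr16:20651615-20651644 (+) for Psmd2, chr7:140882377-140882406 (+) for Psmd13 and chr14:14120972-14121001 (-) for Psmd6. The match begins 2, 28, 26, 6 and 45 bases before the RefSeq start.
Psma6: ccgccggtgctCCGGAAGcagtagccataa
Psmc1: tggtggatgcaCTTCCGGcggtggcgattt
Psmd2: tccgcagggcgCTTCCGGtctggaggacaa
Psmd13: cgcccgcggtgCCGGAAGtgagcgagcact
Psmd6: cagagacgcgaCCGGAAGtcagactggcgg

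The windows around the interferon-stimulated and antioxidant elements are shown for the activators that changed and for the proteolytic subunits that hold one. Psme1 has the first, in reverse complement, beginning at base 11 after its start (chr14:55578494-55578523, +). Psme4 has the second across its start (chr11:30771758-30771787, +). Psmb5 (chr14:54618023-54618052, -) and Psmb6 (chr11:70525338-70525367, +) have the second as well, beginning 47 and 9 bases before the start. Capitals mark the match.
Psme1: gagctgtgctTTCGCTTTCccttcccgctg
Psme4: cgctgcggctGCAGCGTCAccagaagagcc
Psmb5: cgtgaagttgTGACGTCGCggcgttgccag
Psmb6: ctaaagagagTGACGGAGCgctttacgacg

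Of the other members, Psmb3, Psmb4, Psmc2, Psmd4, Psmd9 and Psmg4 also hold the interferon-stimulated letters. Their log2 fold changes were -0.07, 0.0062, -0.03, 0.05, 0.10 and -0.13, and none was called. Psmc6, Psmd9 and Psmd12 hold the antioxidant letters, with log2 fold changes of 0.07, 0.10 and 0.11.

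The genes whose groups did not overlap lie in 3 places (GENCODE M21, GRCm38, an earlier build than the GRCm39 that the processing notes name, so no position was joined to a value). Psme1 (ENSMUSG00000022216) is at chr14:55578123-55581529 on the plus strand and Psme2 (ENSMUSG00000079197) at chr14:55587441-55591113 on the minus strand, close to each other and facing. Psmb10 (ENSMUSG00000031897) is at chr8:105935735-105938444 on the minus strand and Psme4 (ENSMUSG00000040850) at chr11:30771726-30880361 on the plus strand. The values count exonic reads of each gene as a whole.

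The 250 bases before the RefSeq starts of both called genes are given in full, with GC boxes and ETS motifs in capitals (either strand). Both RefSeq starts lie within the GENCODE M21 coordinates of these genes. Psme1 has 66.8% G or C at chr14:55578244-55578493 (+), and Psme4 has 63.6% at chr11:30771525-30771774 (+).
Psme1: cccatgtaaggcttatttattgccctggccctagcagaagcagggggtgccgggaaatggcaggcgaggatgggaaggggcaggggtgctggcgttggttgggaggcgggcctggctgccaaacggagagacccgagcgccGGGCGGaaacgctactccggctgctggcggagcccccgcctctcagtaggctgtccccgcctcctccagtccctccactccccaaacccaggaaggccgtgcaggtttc
Psme4: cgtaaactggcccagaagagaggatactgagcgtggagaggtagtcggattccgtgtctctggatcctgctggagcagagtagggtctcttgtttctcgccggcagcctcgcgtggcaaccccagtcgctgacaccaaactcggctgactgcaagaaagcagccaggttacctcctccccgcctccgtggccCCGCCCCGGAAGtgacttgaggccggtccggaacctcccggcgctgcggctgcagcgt

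Some members share sequence with copies elsewhere in the genome, and uniquely mapped reads can then be lost or placed at the copy. A copy of at least 500 aligned bases at 95% identity or more was found for 8 members. Apart from the pair of Psme2 and Psme2b, the copy largest in value was Gm3375, a processed pseudogene that matches Psmb5 at 98.9% over 796 bases. It had normalized values of 164 to 225 in Con-Veh and 175 to 262 in Con-DHT (log2 fold change 0.07, limma adjusted p = 0.82). The level of Psmb5 is uncertain for this reason, by an amount that was not tested. On the opposite strand, exons of Nek6 cover 11.8% of those of Psmb7 and exons of Slc39a13 8.25% of those of Psmc3.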

How the data were processed

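RNA from 8 livers, 1 mouse each, was sequenced after ERCC spike-in RNA was added. Groups and replicate numbers came from the labels. Per the methods and the labels, the authors trimmed reads with Trimmomatic, aligned them with STAR to mouse GRCm39, counted exonic reads with featureCounts (Subread) and used DESeq2. What they deposited is a normalized signal: reads per gene over a size factor of the library, with features of low counts already left out. Dividing each column by its smallest step gave whole reads for 100% of values (tolerance 0.01).

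The main test was limma 3.58.1 (lmFit, eBayes with trend) in R 4.3.3 on log2(value + 1) of the 14312 mouse genes whose mean reached 10, adjusted by Benjamini-Hochberg over all of them, with a threshold of 0.05. The pseudocount slightly understates the change of low genes. No column was left out. edgeR 4.0.16 (quasi-likelihood) and DESeq2 1.42.0 on the recovered reads were alternatives, beside other pseudocounts, filters, scalings, array weights, a loess correction for length and GC content (span 0.5), the replicate number as a block and leaving out each library. The length and GC content were those of the longest annotated transcript of each gene. Libraries of a group differed well beyond counting noise (chi-square per degree of freedom 19.1 to 61.2 over 12 pairs), and each counted as a replicate. The fits were tested on simulated data.

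The labels do not say whether mice shared a cage or litter. A detail of the colony's genotype, shared by both groups, is not reported here. The members and gene lists were chosen with earlier results of these data known. Named genes are the called members, the 3 highest and 3 lowest fold changes of each particle, the proteolytic subunits, Psmd14, Psmd2, Psmd4, the activators, Psmf1, and from the lists Psmb8, Psmb9, Pomp, Sem1, Adrm1, Nfe2l1, Nfe2l2 and every called gene. Other genes named were chosen after their values were seen. Roles of members were assigned by hand from their known functions. Gene symbols and exon lengths came from GENCODE M21.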

Additional observations from a re-analysis of the deposited data

Results flagged for a closer look

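In each member and group of 4 livers, a liver was singled out when its gap to the nearest of the others exceeded the 95% critical value of Dixon's test. Chance flags about 1 in 20 such groups, and 10 of 90 were found here. The genes move together, so these are not 10 independent findings. In each case the liver was the highest of its group. Of the 10, 8 were in Con-Veh replicate 1. Its normalized value was 1466 for Psma1 against 1312 to 1323 in the other Con-Veh livers, 1193 for Psmb3 against 891 to 927, 1827 for Psmb7 against 1603 to 1628, and 1874 for Psmc4 against 1277 to 1374. It was 2699 for Psmd3 against 2150.3 to 2215, 2111 for Psmd4 against 1567 to 1659, 1383 for Psmd7 against 1164 to 1178, and 1826 for Psmd8 against 1491 to 1535. The other 2 were in Con-DHT. Psma4 was 1392 in replicate 3 against 1229 to 1255, and Psma5 was 1200.1 in replicate 4 against 912 to 945. Con-Veh replicate 1 also had the highest share of spike-in reads (3.61%). Its part in these values was not tested.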

How the results depend on the processing

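Of 690 values of named genes over 23 alternatives, 626 kept their side of the threshold, 57 lost the call, 7 gained it and 0 reversed. Only the named genes called in the main test could lose a call: Psme1, Psme4, Nfe2l2, Ecpas, Rad23b and Faf1. All 57 losses are theirs, and most of the 626 belong to genes that had no call to lose. Of the 626, 29 changed sign without being called. With DESeq2, 4 members, 1 gene of the 20S part and 1569 of all genes were called. Psme1 was called under 10 and Psme4 under 11 of the 15 alternatives that keep all libraries. Nfe2l2 and Ecpas were called under 10 of these, and Rad23b and Faf1 under 11. Over the 8 omissions of a library, the call held in 2 for Psme1, 7 for Psme4 and 6 for Nfe2l2. It held in 1 each for Ecpas, Rad23b and Faf1. A mean of at least 50 left 648 of all genes. Scaling by the spike-ins called 0 members, 0 partners and 637 of all genes. It moved the median log2 fold change of all genes to 0.19, that of the 20S part to 0.21 and that of the 19S part to 0.25, with Psme1 at -0.09 and Psme4 at 0.51. Such a scaling shifts all genes of a library alike. An equal total without the major urinary protein genes called 1 gene of the 19S part and gave a 20S median of 0.10. Without the trend, 1 member and 0 partners were called, and the length and GC correction called 0 partners. Leaving out single libraries gave 1 to 2 members, 0 to 1 partners and 633 to 905 of all genes, the lowest without Con-Veh replicate 4. The cause of these moves was not tested, except that the omissions use fewer samples.

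Same-numbered livers did not deviate together (correlations of -0.19, -0.0060, -0.022 and -0.076, with 0 of 8 libraries closest to their own number). With so few livers and no cage or litter in the labels, this cannot decide whether the numbers pair the mice. With the replicate number as a block, 1 member was called, which is the 1 gene of the 20S part, Psmb10, and 0 partners. With the block and the length and GC correction these counts were again 1, 1 and 0. The block alone left Psme1 with an adjusted p of 0.0568 and Psme4 with 0.0562. The 20S minus 19S difference without Psmb10 and the correlations without Con-Veh replicate 1 were chosen after seeing the data. Depth limits Psme2b and the chaperones Psmg1 to Psmg4 and Psmd10 most, which have the lowest values of the members.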

Other observations

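Processed pseudogenes that copy proteasome genes were found at low values in the table, and this was noticed after their values were seen. Gm5422, a copy of Psmd2 at 97.0% identity, had normalized values of 13.2, 7.72, 8.98 and 10.4 in Con-Veh and 33.4, 25.2, 29.6 and 40.2 in Con-DHT (log2 fold change 1.58, limma adjusted p = 0.0054). Gm8394, a copy of Psma5, had 2.199, 4.83, 4.99 and 6.09 in Con-Veh and 13.7, 15.5, 23.5 and 13.0 in Con-DHT. Gm6542, a copy of Psma4, had 7.69, 11.6, 7.99 and 6.96 in Con-Veh and 19.6, 16.5, 21.4 and 22.8 in Con-DHT. These last 2 passed the filter on low values (a mean of at least 10) only through the Con-DHT livers, so no test is given for them. The genes that these 3 copy, Psmd2, Psma5 and Psma4, were not called. The other 2 pseudogene copies in the table, Gm13835 (Psma3) and Gm3375 (Psmb5), had log2 fold changes of 0.31 and 0.07 and were not called. Whether the reads come from the copies, from genes around them or from the parent genes was not tested.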
